A study of Mus musculus with 3 samples.

Results

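The Id1, Id2 and Id3 loci were examined for SOX2 binding by chromatin immunoprecipitation and sequencing (ChIP-seq) in antral glands of the mouse stomach. The members are all peaks overlapping 3 windows on the mouse build mm9, which were Id1 on chr2:152461000-152665000, Id2 on chr12:25680000-25880000 and Id3 on chr4:135600000-135800000. The windows held 16 of the 7213 peaks of the wild-type list and 1 of the 887 peaks of the Sox2 knockout list. Where each Id gene lies inside its window was not checked, so a distance from the centre of a window is not a distance from the gene. The windows were chosen by gene name with the peak lists already known, so the number, position and score of their peaks are given as a description, without a test.

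The knockout library came from Rosa26CreER; Sox2 fl/fl mice, in which a tamoxifen-inducible Cre at the Rosa26 locus removes the loxP-flanked Sox2 alleles, and the wild-type library from Rosa26WT; Sox2fl/fl mice. Both genotypes therefore carried the flanked alleles, both were on a mixed C57BL/6 x 129 background, and both were given tamoxifen at 8 weeks of age, with stomachs collected 2 weeks later. The inducible Cre is not limited to the epithelium, and neither the number of animals per library nor the extent of recombination is given in the sources used here. Each genotype had 1 ChIP library with the same goat anti-SOX2 antibody. Without replicates no difference between the genotypes could be tested. Peak lists hold no expression values, so neither the loss of Sox2 nor the cell types of the glands could be checked in them. The read depths were unknown, and the number and the scores of peaks both move with depth.

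Id proteins are helix-loop-helix proteins without the basic region that contacts DNA. They pair with E proteins and keep them from binding their sites, and in many tissues they restrain differentiation. Id1, Id2 and Id3 are among the genes most directly induced by bone morphogenetic protein (BMP), whose receptors phosphorylate SMAD1 and SMAD5, which then bind regulatory DNA of these genes together with SMAD4. SOX2 is a high-mobility-group transcription factor of the stomach epithelium that marks some of its stem and progenitor cells.

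Wild-type peaks were most numerous at Id1, with 8 (exact Poisson 95% interval 3.45 to 15.8), followed by Id2 with 6 (2.2 to 13.1) and Id3 with 2 (0.242 to 7.22). All 3 intervals overlap one another, that of Id1 and that of Id3 included. The knockout list held 1 peak at Id1 (0.0253 to 5.57) and none at Id2 or Id3, where a count of 0 has an upper bound of 3.69. The intervals cover counting error only and take peaks as independent of one another. Peaks lay in close groups at Id1 and Id2, so the intervals may be too narrow. Their overlap is no test between loci. Of the 16 wild-type peaks, 15 did not overlap a knockout peak, compared with 91.8% over the whole wild-type list. The lowest score is 50.02 in the knockout list, and a weaker knockout signal would not be listed.

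**Figure D1:**
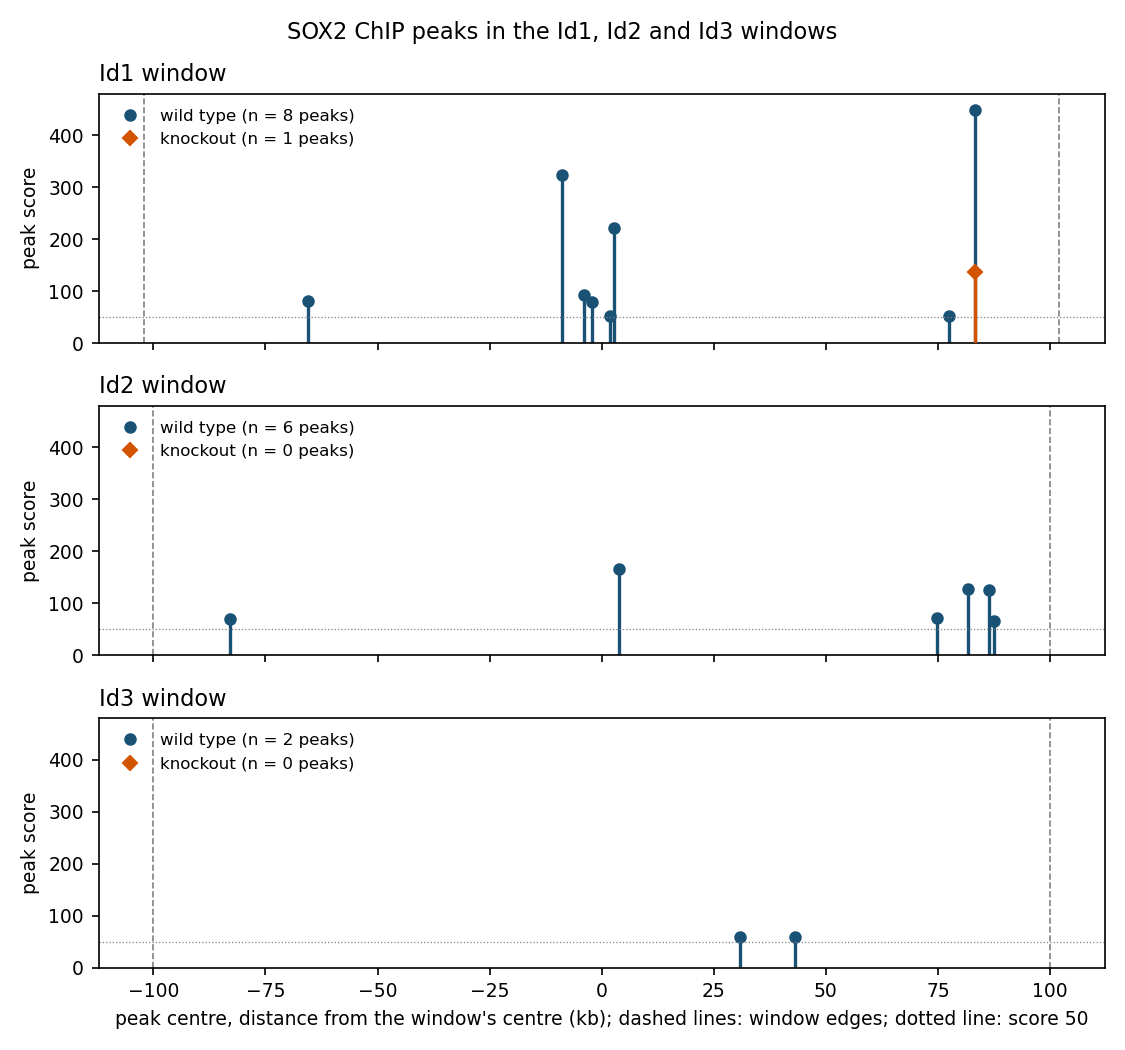
Score of each peak (vertical axis, the authors' score) against the distance of its centre from the centre of the window in kb (horizontal axis), for the Id1, Id2 and Id3 windows. Circles are wild-type peaks and diamonds knockout peaks. Of the 3 highest wild-type peaks at Id1, the 1 with the highest score has a knockout peak under it, and no knockout peak was listed at Id2 or Id3.

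The scores of the 16 wild-type peaks were spread over nearly the whole range of ranks. A score is the authors' own value for a peak and ranks it within its list. The lowest of the 16 was 51.35, the median 79.455 and the highest 448.17, beside a median of 82.62 over the whole wild-type list. Scores of 100 or more were held by 6 of the 16 (37.5%), beside 38.8% of the list, and 7 of the 16 lay above the list's median. The median width was 302 bp in the windows and 320 bp in the list. These medians and shares lay close to those of the list as a whole.

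At Id1, 3 of the 8 wild-type peaks had high scores and the other 5 lay between 51.35 and 92.22. The highest lay on chromosome 2 from 152645942 to 152646555, scored 448.17 and ranked 153 of 7213. The next lay from 152553829 to 152554355, scored 322.61 and ranked 311. The third lay from 152565493 to 152566012, scored 222.11 and ranked 713. These 3 were also the widest at the locus, at 614, 527 and 520 bp, while the other 5 measured from 226 to 335 bp.

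The 2 peaks of Id1 with scores of 322.61 and 222.11 stood on either side of the centre of the window, 8.91 kb before it and 2.75 kb after it. Between them, the peak from 152558999 to 152559254 scored 92.22, that from 152560759 to 152561093 scored 78.15 and that from 152564717 to 152564942 scored 51.35. Together these 5 peaks occupied 12.2 kb, with gaps of 550 to 4643 bp. The remaining peaks were apart from this group. One lay from 152497460 to 152497761, 65.4 kb before the centre, with a score of 80.76. Another lay from 152640317 to 152640542 with a score of 52.46, which is 5.4 kb from the highest peak of the locus and 77.4 kb after the centre.

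Few other wild-type peaks lay near the Id1 window on chromosome 2. Sparse stretches are common in the list, as 69.6% of all windows of the same size held no wild-type peak. The nearest wild-type peak before the window was 458 kb from its edge, with a score of 100.61. A peak from 152673352 to 152673775 with a score of 111.86 lay 8.35 kb beyond the other edge and is therefore not a member. After it the next wild-type peak was 510 kb from the window. Inside the window the first peak was 36.5 kb and the last 18.4 kb from the edge, with scores of 80.76 and 448.17. Over the window the density was 39.2 wild-type peaks per Mb, beside 2.85 per Mb over the peak-bearing span of chromosome 2.

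The highest peak of Id1 was the only member called in both genotypes. The knockout peak lay from 152646126 to 152646466, scored 136.49 and ranked 69 of 887. It was contained in the wild-type peak and covered 55.5% of it. Its centre was 47.5 bp after that of the wild-type peak. A wild-type peak contains its knockout partner in 486 of all 592 pairs of overlapping peaks (82.1%). By rank the wild-type peak was within the upper 2.12% of its list and the knockout peak within the upper 7.78% of its own. The scores of the lists are not on a common scale.

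Of the 153 wild-type peaks with a score at least as high as that peak, 127 (83.0%) overlapped a knockout peak. A knockout call was therefore the usual outcome from that score upward. The same share was 67.2% (209 of 311) among the peaks scoring at least 322.61. It was 45.4% (324 of 713) among those scoring at least 222.11. Each share takes in all higher peaks, so it is not the share at that score. The shares fell as weaker peaks were added, so the peaks added at each step overlapped less often than the share printed. A missing call at 322.61 or 222.11 is therefore less unusual than 67.2% and 45.4% make it look. The share among peaks close to either score alone was not counted. The 2 strong peaks beside the centre of the Id1 window overlapped no knockout peak. The nearest knockout peak was 91.8 kb from the first and 80.1 kb from the second. In both cases that nearest peak was the knockout peak at the far end of the same window. Strong wild-type peaks with and without a knockout call therefore lay less than 100 kb apart at this locus.

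At Id2, the wild-type peaks were of moderate score and formed a single peak near the centre, a group of 4 towards 1 edge and a single peak near the other. The peak near the centre lay on chromosome 12 from 25783583 to 25783953, 3.77 kb after the centre. It had the highest score of the locus, 166.04, and ranked 1251 of 7213. The group of 4 extended over 13.1 kb and lay 74.7 to 87.4 kb after the centre.

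Within that group, the peak from 25861577 to 25861799 scored 127.2 and the peak from 25866025 to 25866664 scored 126.42. The latter was the widest member of all, at 640 bp, and the former was 223 bp wide, so nearly equal scores were given to peaks of very different width. Of the outer peaks of the group, that from 25854470 to 25854831 scored 72.51 and that from 25867291 to 25867592 scored 66.75. The last 2 peaks of the group were 626 bp apart. On the other side of the centre a peak from 25696954 to 25697224, 82.9 kb before it, scored 69.85.

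The group near the edge of the Id2 window had a neighbour outside. A wild-type peak with a score of 73.4 lay 14 kb beyond the edge, and after it none followed for 2631 kb from the window. On the other side the nearest outside peak was 99.5 kb away, with a score of 57.89, followed at 101 kb by a peak with a score of 130.72. Inside the window, the first and last peaks were 17 and 12.4 kb from the edges. The density was 30 wild-type peaks per Mb, beside 2.94 per Mb over chromosome 12.

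None of the 6 Id2 peaks overlapped a knockout peak, and none had one nearby. The nearest knockout peak was 5034 to 5205 kb away, beside a median of 661 kb (quartiles 197 and 1668) over all 6625 wild-type peaks without an overlap. Over the range up to the highest Id2 score, a missing knockout call is the usual outcome. Among wild-type peaks scoring no more than 166.04, 2.99% overlapped a knockout peak. That share takes in all weaker peaks, so it is not the share at the scores of the higher Id2 peaks.

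At Id3, there were 2 wild-type peaks of low score and no knockout peak. Both were on chromosome 4. The peak from 135730819 to 135731026 scored 60.22 and ranked 5405 of 7213, and that from 135743084 to 135743317 scored 59.83 and ranked 5501. They were narrow, at 208 and 234 bp, and were 12057 bp apart. They lay 30.9 and 43.2 kb after the centre of the window, and no peak was listed in the part before the centre.

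The nearest wild-type peaks outside the Id3 window were 97.8 kb before it, with a score of 50.82, and 586 kb after it, with a score of 53.27. The nearest knockout peak was 934 kb from the closer of the 2 members. It overlapped a wild-type peak with a score of 416.97. The density in the window was 10 wild-type peaks per Mb, beside 2.96 per Mb over chromosome 4.

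**Figure D2:**
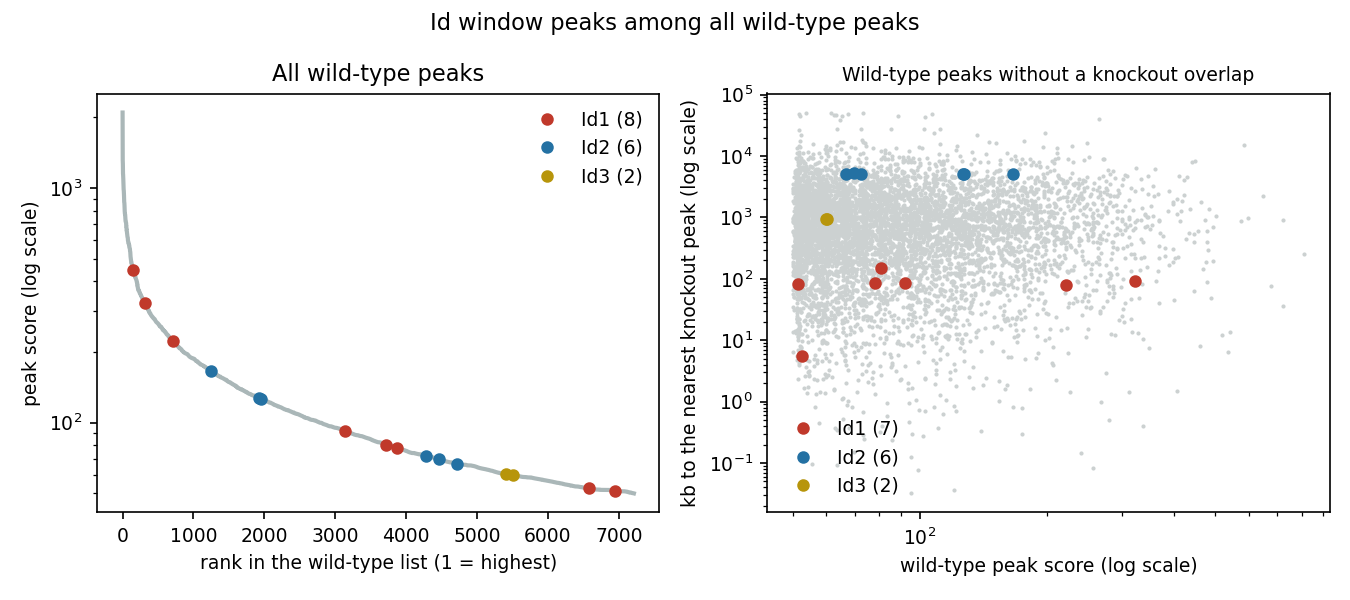
Left, score (log scale) against rank for all wild-type peaks, with the Id1, Id2 and Id3 peaks marked. Right, distance to the nearest knockout peak in kb (log scale) against wild-type score (log scale) for wild-type peaks without a knockout overlap, each grey point being 1 peak; 1 peak on a sequence with no knockout peak is not drawn. Id1 peaks range in rank from 153 to 6946 of 7213, with Id2 peaks in the middle and Id3 peaks low. The highest Id1 score, 448.17, is well below the highest of the list, 2097.47. All 6 Id2 peaks, which share a single stretch of chromosome 12, are at least 5034 kb from a knockout peak.

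The loci were set beside every window of the same size, laid end to end over the peak-bearing span of each chromosome. Of 12471 windows of 204 kb, the size of the Id1 window, 26 (0.208%) had at least 8 wild-type peaks. Of 12722 windows of 200 kb, 85 (0.668%) had at least the 6 peaks of Id2 and 1793 (14.1%) at least the 2 peaks of Id3. Most 200 kb windows, 70.1%, had no wild-type peak, and the mean was 0.564. Among windows with at least 1 wild-type peak the shares were 0.686% for Id1, 2.23% for Id2 and 47.1% for Id3. With scores of 100 or more, Id1 and Id2 had 3 peaks each, a count reached by 1.07% and 1.01% of windows, and Id3 had none. In a window 0.5 times as wide the Id2 count was 1. This background takes in gene-poor and unmappable stretches, and the Id loci themselves were not left out of it. The windows are not matched for gene content, and the loci were proposed with their peaks known.

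Groups of peaks close together were counted in the same windows. At least 5 wild-type peaks inside 15 kb, as at the centre of the Id1 window, were held by 4 windows of that size (0.0321%). At least 4 inside 15 kb, as near the edge of the Id2 window, were held by 35 windows (0.275%). Windows over the Id loci themselves can be among those counted. The length of 15 kb was chosen to hold the groups seen, so these shares are not comparable with those of the counts. Windows were also counted by their highest score. A peak scoring at least 448.17 was present in 1.17% of windows of the Id1 size, a peak scoring at least the 166.04 of Id2 in 8.36%, and a peak scoring at least the 60.22 of Id3 in 25.4%.

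A knockout peak was less common than a wild-type one in these windows. Of the windows of the Id1 size, 6.01% had at least 1 knockout peak, and of the 200 kb windows, 94.0% had none, as was found at Id2 and Id3. Among the 26 windows with at least as many wild-type peaks as Id1, 23 (88.5%) also had a knockout peak. Among the 85 windows with at least as many as Id2, 41 (48.2%) had one and 44 did not. Among the 1793 with at least as many as Id3, 412 (23%) had one.

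**Figure D3:**
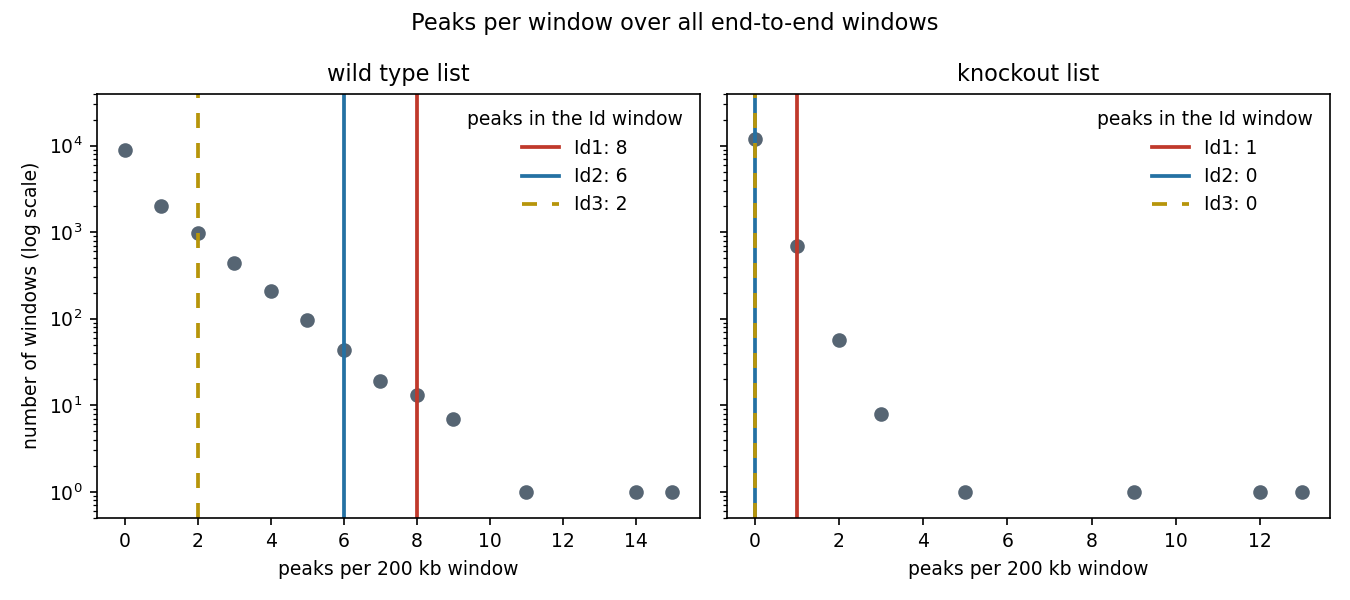
Number of windows (log scale) against the number of peaks in a window, over 12722 end-to-end windows of 200 kb, for the wild-type list (left) and the knockout list (right). Vertical lines mark the counts at Id1, Id2 and Id3, of which the first was taken in a window of 204 kb. At least 6 wild-type peaks, the count at Id2, were held by 85 windows, and at least 2, the count at Id3, by 1793.

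No peak was assigned to a gene, because the gene table used here is on the build GRCm38.p6 and the peaks are on mm9. In that table the protein-coding neighbours of Id1 are H13, a signal peptide peptidase, and Cox4i2, a cytochrome oxidase subunit. Those of Id2 are Kidins220, a membrane scaffold protein, and Rnf144a, a ubiquitin ligase. Those of Id3 are Rpl11, a ribosomal protein, and E2f2, a cell-cycle transcription factor. A peak in a window may be nearer to one of these or to another gene than to the Id gene.

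The RefSeq promoters of Id2 and Id3, from 250 bases before to 50 after the start, are shown as the regulatory sequence at hand for these loci. The capitals mark GGCGCC, a GC-rich SMAD-binding sequence of BMP-responsive genes. They are on GRCm38.p6, from chr12:25096043-25096342 on the minus strand and from chr4:136143572-136143871 on the plus strand. These positions cannot be compared with those of the peaks above.
Id2: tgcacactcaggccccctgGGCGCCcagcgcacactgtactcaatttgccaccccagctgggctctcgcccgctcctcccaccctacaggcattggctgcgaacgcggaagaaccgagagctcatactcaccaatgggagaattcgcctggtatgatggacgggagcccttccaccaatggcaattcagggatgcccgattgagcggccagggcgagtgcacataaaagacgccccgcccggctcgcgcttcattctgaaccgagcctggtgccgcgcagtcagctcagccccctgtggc
Id3: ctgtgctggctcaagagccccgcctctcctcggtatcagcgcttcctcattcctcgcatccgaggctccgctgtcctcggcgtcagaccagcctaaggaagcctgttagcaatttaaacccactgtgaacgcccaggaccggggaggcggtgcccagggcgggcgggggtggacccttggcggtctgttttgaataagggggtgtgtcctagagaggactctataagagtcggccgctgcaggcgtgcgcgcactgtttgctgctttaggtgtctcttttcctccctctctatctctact

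The Id2 promoter held GGCGCC once and the Id3 promoter did not, and 11.9% of the 32851 promoters in the table hold it. Neither ACAAAG nor ACAATG, a pair of core sequences bound by SOX proteins, was found on either strand of these 2 promoters, and 28.6% of all promoters hold at least 1 of them. GC content was 63.3% for Id2 and 60% for Id3, beside a median of 52.7% over the promoters. A match is a description of the letters and not a bound site, and a missing match says nothing about SOX2 binding elsewhere in the windows. A promoter of Id1 was not analysed here.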

How the data were processed

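SOX2 ChIP-seq libraries of wild-type and Sox2 knockout antral glands were analysed, 1 per genotype. The wild-type input was not used here. Per the submitters' processing notes, the tools were Bowtie2 and MACS and the build was mm9. Their versions and settings, and the control of the peak calling, were not given in the sources used here. Each deposited file holds a position and a score per peak, called by the authors for each library separately. No source names the scale of the score, so it served to rank peaks within a list. Positions are printed 1-based.

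Peaks overlapping a window by at least 1 bp were its members. Windows of equal size were laid end to end over chromosomes 1 to 19 and X, which replaces a random draw by a full count. No test between genotypes was made. Intervals of counts are exact Poisson 95% intervals. All peaks of the windows are named. Members and lists were chosen with earlier results of these data known. Planned values for other BMP pathway genes were not computed, since no mm9 annotation was used here. Counting was tested on simulated data. Alternatives were the score minimum, the window, the overlap rule and the placement of windows. The tools were pandas 2.3.3, NumPy 2.4.6 and SciPy 1.17.1 under Python 3.11.15, with figures by matplotlib 3.10.9.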

Additional observations from a re-analysis of the deposited data

How the results depend on the processing

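Of 46 alternatives over 14 values, 34 left a count within 1.5 times or a share within its exact binomial interval, and 12 moved it. The 34 include some that could not come out otherwise. The knockout and overlap counts at Id2 and Id3 were 0, which no stricter rule can change. With a score of at least 100, the wild-type counts were 3 at Id1, 3 at Id2 and 0 at Id3, and the share of windows with as many was 1.07% for Id1 and 1.01% for Id2. No share could be given for the 0 of Id3. In windows 0.5 times as wide the wild-type counts were 5 at Id1 and 1 at Id2, and the knockout count at Id1 was 0, since the outer peaks of both loci, the shared one included, fall outside. Among windows with at least 1 wild-type peak, the share with at least as many peaks was 0.686% for Id1, 2.23% for Id2 and 47.1% for Id3. On autosomes only it was 15% for Id3. Doubled windows, the peak centre rule, both other overlap rules and windows shifted by 0.5 times their width moved no value past its limit. The peak centre rule could change no count, since every member lay at least 12.4 kb inside its window and measured at most 640 bp. For the stricter overlap rule only the shared peak of Id1 could have changed. For the rule of a knockout peak within 1 kb, the closest member without an overlap was 5.58 kb from one. The shift of the windows for the dense groups was added after the data were seen. With 1 library per genotype none could be left out, and the unknown depth limits what can be read from a difference in number or score.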
